A study of Sus scrofa with 12 samples.

Results

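The protein components of the cytosolic ribosome were followed in pig skeletal muscle over the first weeks of life. A gene was a member if the probe annotation gave it the symbol RPL or RPS followed by a number with at most 1 added letter (A, L, X, P or Y), or the symbol RPLP0, RPLP1, RPLP2 or RPSA, and the kinases that phosphorylate RPS6 were left out. The rule found 59 of the 6765 genes with a single symbol, 34 of the large and 25 of the small ribosomal subunit. They were read by 91 of the 23999 probe sets that are not controls. A probe set is a group of short probes on the Affymetrix array that read 1 transcript, and each gene was followed by its probe set with the highest mean log2 signal over the 12 arrays. All groups were skeletal muscle of postnatal pigs (Sus scrofa) for which the labels name no treatment, with 3 arrays each from animals within 24 hours of birth (day 0) and at 7, 14 and 21 days of age. The labels call the 3 samples of an age biological replicates and do not state that they were separate animals, so the p-values measure the spread between these samples. The muscle, breed and sex are not given in the sources used here.

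The cytosolic ribosome translates every messenger RNA outside the mitochondria. Its small subunit reads the codons and its large subunit joins the amino acids. Each subunit is a core of ribosomal RNA coated by proteins, most of them small, basic and present in a single copy. Transcripts of these proteins begin with a 5′ terminal oligopyrimidine (TOP) tract, a run of pyrimidines through which growth signals acting by the kinase mTOR control how well they are translated. Skeletal muscle of the newborn pig makes protein at a very high rate that declines in the following weeks, and the ribosome content of the tissue is one determinant of that rate.

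With the scaling of the deposited signals, most of these transcripts lay close to their level at birth, and RPL3 did not. RPL3, a large-subunit protein that lies next to the site where peptide bonds form, fell 2.40-fold between day 0 and day 21. The median change of the 57 members tested was -0.08 on the log2 scale, and 39 of them had age means that lay within less than 0.25 of each other. At an adjusted p of at most 0.05 (limma, Benjamini-Hochberg over all 14399 probe sets tested), 2 members fell and 0 rose between day 0 and day 21. They were RPL3 and RPL13, and they make 3.51% of the members, while 4.9% of all probe sets tested fell and 6.61% rose. RPL13 did not hold its call under most other settings, as given below. How many members fell to day 21 depended on how the arrays were scaled, and 0 rose under any scaling tried. With quantile normalization 21 fell, 36.8% against 5.21% of all probe sets tested. With median centring 7 fell, 12.3% against 7.17%, and with scaling on the hybridization controls 47 fell, 82.5% against 17.3%.

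Measurements rested on bright probe sets. The probe sets of 55 members (93.2%) lay among the brightest 10% on the array, 42 members had a mean signal of at least 20000, and the highest mean was 35649. The brightest probe set on any array reached 72392, and signals of different probe sets are not amounts of RNA that can be set against each other. Arrays of the same age differed little for these transcripts, with a median within-age standard deviation of 0.12 on the log2 scale against 0.33 over all probe sets tested. The latter include far dimmer probe sets, and the spread of equally bright ones was not compared. The 95% interval of a member's change had a median half-width of 0.26, and for day 21 against day 0 the interval lay within 1 log2 unit of 0 in 55 of 57 members and within 0.5 in 41. The number of arrays limits the precision. RPL30 and RPS15A were not tested, since their probe sets had mean signals of 62.2 and 20.6, under the limit of 90.3 that removed the dimmest 40% of probe sets. Among 76 core ribosomal protein genes, 18 had no probe set with a single symbol and were not analysed here, among them RPL10, RPL7A, RPS3 and RPS14. RPL3L, the paralog that takes the place of RPL3 in striated muscle, was likewise not analysed here.

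The trimmed mean signal was 500.1 on each array. The day 0 arrays stood apart in 2 kinds of control probe set. The hybridization controls, centred on their mean over the arrays, lay between -0.37 and -0.20 at day 0 and between -0.06 and 0.32 later. The 28S ribosomal RNA probe sets, centred likewise, lay between -1.19 and -0.35 at day 0 and between -0.15 and 0.56 later, while the 18S ones overlapped (-0.92 to 0.32 and -0.26 to 0.56). The poly-A spike-in 3′ to 5′ log2 ratio was 0.69, 1.59 and 0.66 in day 0 replicates 1, 2 and 3. It was 0.37 to 0.67 later, a range that held only replicate 3 of day 0. Its mean was 0.98 at day 0 and 0.43, 0.49 and 0.61 at days 7, 14 and 21. Scaling on the hybridization controls and median centring both moved the median change of all probe sets tested. For day 21 against day 0 it went from 0.02 to -0.36 with the hybridization controls and to -0.09 with median centring. For day 7 against day 0 it went from 0.00 to -0.31 and to -0.1. The split of all calls at day 21 was 952 higher and 705 lower as deposited, 739 and 1032 with median centring, and 397 and 2486 with hybridization control scaling. At day 7 these splits were 829 and 524, 604 and 736, and 358 and 1636. The summed signal of 13 of 15 fibre markers was 310008 to 436751 at day 0 and 454633 to 639581 later. The sums were 1714 to 2733 and 3053 to 5482 for 8 of 10 leukocyte markers, and 4441 to 5404 and 5269 to 8163 for 6 of 7 endothelial markers. The endothelial ranges of day 0 and the later ages overlapped. So did those of 4 of 9 erythroid, 5 of 7 fibroblast and 4 of 6 adipocyte markers. No marker was at 0, while HBE1, PTPRC and ADIPOQ lay under the signal limit. In whole tissue, fewer cells of a type and less RNA per cell cannot be told apart, and the part of these differences in the members' changes was not tested.

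RPL3 had the widest range of age means among the 57 tested members. Its signal on the 3 arrays was 13771, 16995 and 11649 at day 0, and 6879, 7611 and 6356 at day 7. It was 6703, 4705 and 5099 at day 14, and 5373, 7114 and 5183 at day 21. All 3 day 0 arrays lay above all 9 later arrays, and the later ages overlapped each other. The log2 change was -1.01 ± 0.18 (SE, n = 3 per age) from day 0 to day 7 (limma adjusted p = 0.00654) and -1.26 ± 0.18 to day 21 (95% interval -1.66 to -0.86, limma adjusted p = 0.00161). It was also the only member with a change over the 4 ages in the F test (limma adjusted p = 0.00284), 1.75% of members against 8.88% of all probe sets tested. Between day 7 and day 14 the difference was -0.35 ± 0.18, which did not pass (limma adjusted p = 0.861). The fall to day 21 passed under all 23 alternatives tried, with log2 changes from -1.64 to -1.12. The fall to day 7 passed under 22 of 23 and was -0.81 (limma adjusted p = 0.107) with the poly-A ratio as a covariate.

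**Figure D1:**
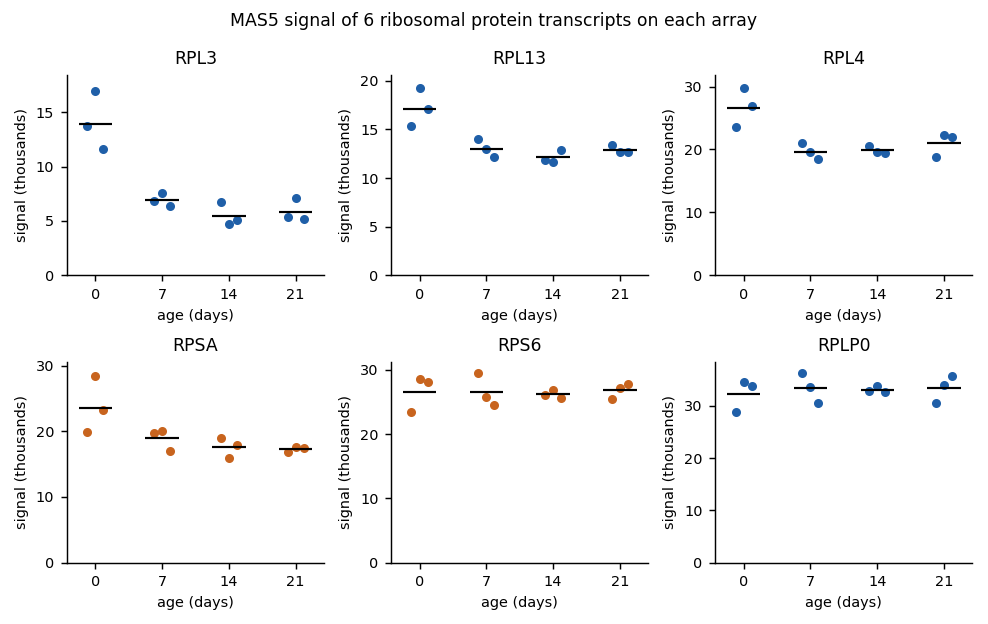
MAS5 signal divided by 1000 (vertical axes from 0, linear) against age in days for 6 ribosomal protein transcripts, with a point per array and a bar at the geometric mean of 3 arrays; blue panels are large-subunit and orange panels small-subunit proteins. RPL3 drops from a mean of 13970.0 at day 0 to 6929.6 at day 7 and lies at 5438 and 5829.6 at days 14 and 21, RPL13, RPL4 and RPSA shift much less, and RPS6 and RPLP0 are level.

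RPL4, a large-subunit protein whose long loop lines the tunnel through which the new protein leaves, had signals of 23518, 29825 and 26934 at day 0 and 20949, 19602 and 18467 at day 7. Its values at day 14 were 20605, 19534 and 19422, and at day 21 they were 18877, 22230.2 and 22005. Every day 0 array again lay above every later one. RPL4 fell by 0.44 ± 0.12 log2 (SE, n = 3 per age) to day 7 (limma adjusted p = 0.0418), and its change to day 21 was -0.34 ± 0.12 (limma adjusted p = 0.0868), which passed without day 0 replicate 1 (-0.43, 0.0441) and under each other scaling. The call at day 7 was lost under 15 of 23 alternatives, among them leaving out any 1 array other than day 0 replicate 1 and day 21 replicate 1 (limma adjusted p over all alternatives 0.00374 to 0.326). RPL8, another neighbour of the catalytic centre, had a log2 change of -0.29 ± 0.12 to day 21 (limma adjusted p = 0.136), RPL23, at the face between the subunits, -0.15 ± 0.14 (0.519), and RPL37, of the tunnel region, 0.00 ± 0.17 (0.989).

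RPL13, a large-subunit surface protein that is altered in a skeletal dysplasia, had signals of 15316, 19282 and 17049 at day 0 and 13982, 12993 and 12160.3 at day 7. At day 14 its signals were 11857, 11662 and 12854, and at day 21 they were 13408, 12722 and 12682. Day 0 was higher than each later age without overlap. RPL13 fell by 0.41 ± 0.12 log2 (SE, n = 3 per age) to day 21 (limma adjusted p = 0.0467), a 1.33-fold difference, and the change to day 7 was -0.40 ± 0.12 (limma adjusted p = 0.0585), which passed without day 0 replicate 1 (-0.48, 0.037). The call was lost under 17 of 23 alternatives, among them leaving out any 1 array other than day 0 replicate 1 (limma adjusted p over all alternatives 0.00258 to 0.172). RPL14, also a large-subunit protein, had signals of 17418, 24503 and 20388 at day 0 and 15816, 15366 and 16643 at day 21. Its values at these ages did not overlap, and its log2 change of -0.37 ± 0.13 did not pass (limma adjusted p = 0.0843). It passed under 4 alternatives, among them without day 0 replicate 1 (-0.49, 0.0269).

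RPL5, RPL11 and RPL23 bind the p53 regulator MDM2 when ribosome assembly is disturbed. From day 0 to day 7 the log2 change was -0.35 ± 0.13 for RPL5 (limma adjusted p = 0.119), -0.13 ± 0.13 for RPL11 (0.561) and -0.41 ± 0.14 for RPL23 (0.0803). RPL23 passed under 4 alternatives, among them without day 0 replicate 1 (-0.52, limma adjusted p = 0.0366). RPL5 also passed without day 0 replicate 1, and RPL5 and RPL11 passed with hybridization control scaling. The day 7 values of RPL5 lay below all of day 0, while those of RPL11 overlapped them. RPL23 had signals of 18169, 22847 and 23339.6 at day 0, 17222, 17358 and 13943 at day 7, and 17904, 18879 and 20996 at day 21. Its day 7 values lay below all of day 0, while those of day 21 overlapped them. RPS27L, the p53-induced paralog of the small-subunit protein RPS27, had the largest positive change of the tested members. It had signals of 5331, 6359.9 and 4994 at day 0 and 6488, 6211 and 6727 at day 21, which overlapped, and its log2 change was 0.23 ± 0.17 (limma adjusted p = 0.417). RPS27 itself had a change of -0.16 ± 0.13 (0.467).

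The stalk of the large subunit, built from RPLP0, RPLP1 and RPLP2, recruits the GTPases that drive translation. RPLP0 had signals of 28856, 34567 and 33895 at day 0, 36239, 33707 and 30647 at day 7, 32891, 33745 and 32744 at day 14, and 30630.2, 34096 and 35754 at day 21. The ages overlapped throughout, and the log2 change to day 21 was 0.05 ± 0.12 (95% interval -0.20 to 0.30, limma adjusted p = 0.831). It turned to -0.33 with hybridization control scaling (limma adjusted p = 0.0338). RPLP1 differed from day 0 by 0.18 ± 0.13 at day 21 (0.376). RPLP2 differed by -0.14 ± 0.19 (0.665), and its day 0 arrays spread from 10733 to 20755 while the 9 later ones lay between 13491 and 15395.

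In the small subunit 0 of 24 tested members passed any of the tests with the probe set that stood for the gene, where 4.9% of all probe sets fell to day 21. With quantile normalization 12 of the 24 fell to day 21, 50% against 5.21% of all probe sets tested. With median centring 3 fell, 12.5% against 7.17%, and with hybridization control scaling 19 fell, 79.2% against 17.3%. RPSA, also known as the laminin receptor precursor, had signals of 19893, 28524 and 23200.4 at day 0, 19775, 20071 and 17065 at day 7, 19014, 15935 and 17978 at day 14, and 16797, 17683 and 17526 at day 21. Its day 21 values lay below all of day 0. The log2 change of -0.45 ± 0.14 did not pass (limma adjusted p = 0.0571), and it passed under 5 of the alternatives, among them without day 0 replicate 1 (-0.57, limma adjusted p = 0.0228). RPS12 had signals of 25194, 31431 and 34098 at day 0 and 21227, 25235 and 22790.4 at day 21, which overlapped in 1 array, and a change of -0.38 ± 0.13 (limma adjusted p = 0.0814). RPS4X, which is encoded on the X chromosome, had a change of -0.28 ± 0.11 (0.101) and RPS27A, which is made as a fusion with ubiquitin, -0.28 ± 0.12 (0.147). With quantile normalization all 3 passed, RPS12 at -0.61, RPS4X at -0.41 and RPS27A at -0.57 (limma adjusted p = 0.0023, 0.0222 and 0.00411). Without day 0 replicate 1, RPS12 (-0.51, 0.026) and RPS27A (-0.39, 0.0414) also passed.

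RPS6, the small-subunit protein phosphorylated by S6 kinase downstream of mTOR, was level. Its signals were 23389.5, 28596 and 28163 at day 0, 29448, 25700.4 and 24585 at day 7, 26073, 26867 and 25561 at day 14, and 25453, 27189 and 27802 at day 21. These overlapped at every age, and the log2 change to day 21 was 0.01 ± 0.12 (95% interval -0.24 to 0.27, limma adjusted p = 0.968), which turned to -0.37 (limma adjusted p = 0.028) with hybridization control scaling. The differences of RPS24 (0.15 ± 0.11), RPS16 (0.10 ± 0.12), RPS21 (0.06 ± 0.11) and RPS2 (0.01 ± 0.11), all of the small subunit, had limma adjusted p-values between 0.408 and 0.976. Of the large subunit, RPL27A had a difference of 0.08 ± 0.13 (0.727).

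**Figure D2:**
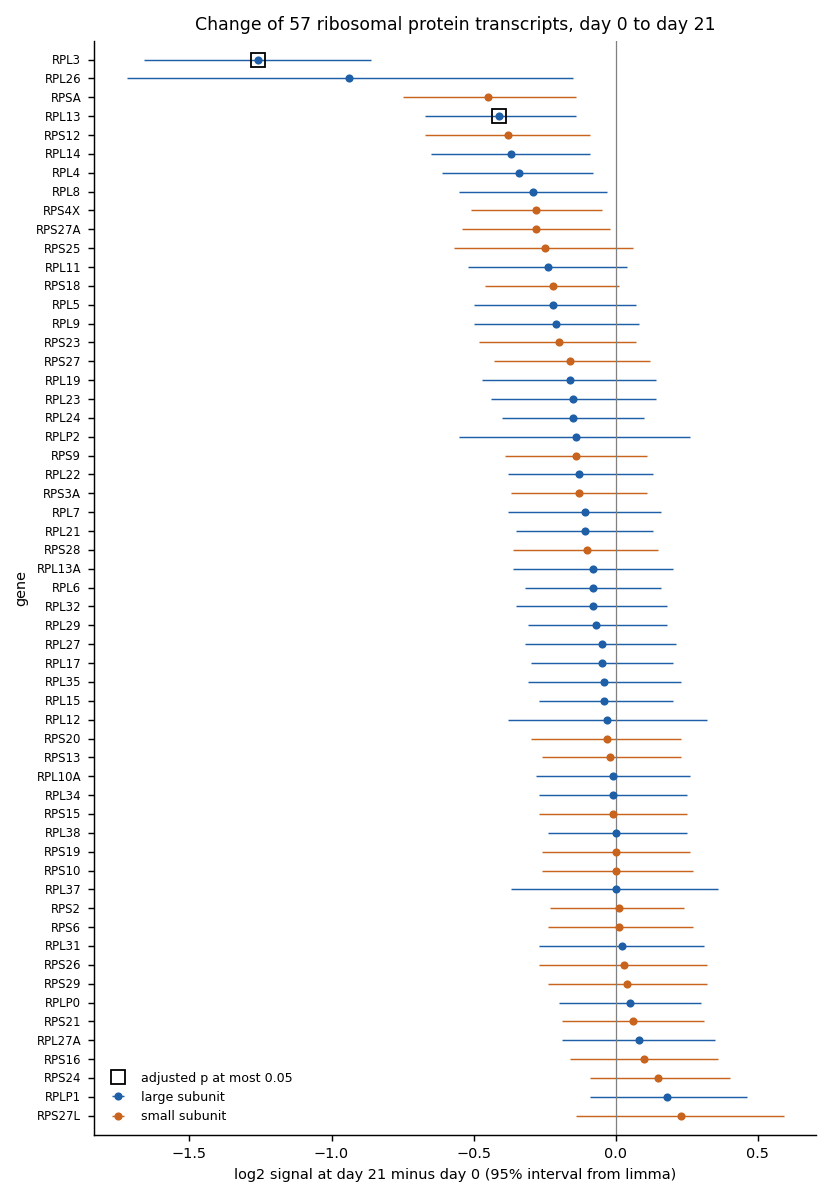
Log2 change from day 0 to day 21 (horizontal axis) for each of 57 ribosomal protein transcripts (vertical axis, in order of change), with the 95% interval from limma over 3 arrays per age; blue is the large and orange the small subunit, and black squares mark an adjusted p of at most 0.05. RPL3 at -1.26 lies lowest, RPL26 at -0.94 has the widest interval, and the other members lie between -0.45 and 0.23.

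Transcripts often used as internal references in expression studies were among the members. Between day 0 and day 21 the log2 change was -0.08 ± 0.13 for RPL13A (limma adjusted p = 0.738), -0.08 ± 0.12 for RPL32 (0.712), 0.05 ± 0.12 for RPLP0 (0.831) and -0.22 ± 0.11 for RPS18 (0.205). RPL13A had signals of 24572, 31184 and 31517 at day 0 and 25069, 25524 and 22249 at day 7, with a change of -0.25 ± 0.13 (limma adjusted p = 0.246). RPL32 had signals of 19385, 23185 and 25359.9 at day 0 and 20808, 23105 and 19961 at day 21, which overlapped. RPL22, a large-subunit protein that also binds other RNAs, had a change of -0.13 ± 0.12 (0.52). With quantile normalization RPS18 fell by 0.54 (limma adjusted p = 0.00491) and RPL22 by 0.32 (0.0446). With hybridization control scaling RPL13A and RPL32 each fell by 0.46 (0.015 and 0.0274), and RPL22, RPS18 and RPLP0 fell as well.

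The 3 probe sets named RPS18, a protein of the small subunit's head, gave different sizes of change. The brightest, which stood for the gene, had signals of 37580.3, 43910.3 and 40109.5 at day 0 and 33334, 35962 and 34838 at day 21, without overlap. The middle one had a log2 change of -0.20 ± 0.14 to day 21 (limma adjusted p = 0.404), from day 0 signals of 21084, 28841 and 28662 to 21080.3, 22619 and 24177. The dimmest, singled out after its values were seen, had 12981, 19235 and 17255 at day 0, 9342, 9525 and 8774 at day 7, 8938, 8759 and 9038 at day 14, and 9865, 9719 and 9314 at day 21. Its day 0 signals lay above all 9 later ones. It fell by 0.82 ± 0.14 log2 to day 7 (limma adjusted p = 0.00478) and by 0.76 ± 0.14 to day 21 (0.00562), and it passed the F test (0.00565). Its call at day 7 was lost with the poly-A ratio as a covariate (-0.64, limma adjusted p = 0.0887) and that at day 21 in the fit to the 6 arrays compared alone (limma adjusted p = 0.053). Whether these probe sets also read other transcripts was not tested.

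**Figure D3:**
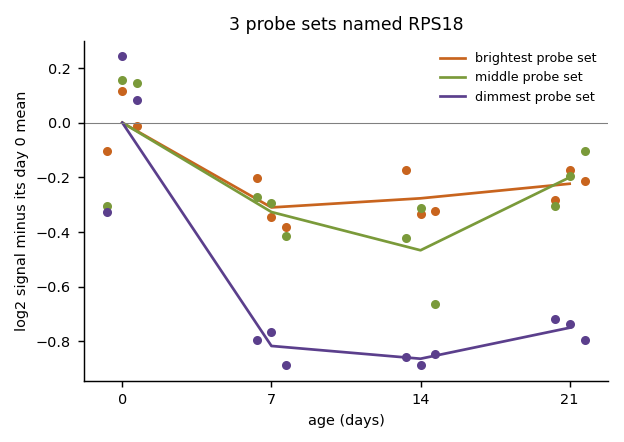
Log2 signal minus each probe set's day 0 mean (vertical axis) against age in days for the 3 probe sets named RPS18, with a point per array and a line through the means of 3 arrays. The dimmest probe set drops by 0.82 at day 7 and the other 2 by 0.31 and 0.33.

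Of the 22 members with several tested probe sets, 6 had day 21 changes of opposite sign, such as 0.18 and -0.54 for RPLP1 and 0.02 and -0.03 for RPL31. Of the 83 member probe sets that were tested, 3 passed at day 21 and 3 at day 7, those of RPL3, RPL13 or RPL4 and the dimmest of RPS18. All of these fell. Of all probe sets tested, 11.5% passed at day 21 and 9.4% at day 7, and 4.9% and 3.64% were lower. RPL26, a protein at the exit of the tunnel, was read by a probe set close to the signal limit, with signals of 187, 109 and 177 at day 0 and 97, 68 and 78 at day 21. These did not overlap, and the log2 change of -0.94 ± 0.37 did not pass (limma adjusted p = 0.114). RPL26 also had the lowest value of the tested members from day 7 to day 14 (-0.42 ± 0.37, limma adjusted p = 0.964). RPL37, another tunnel protein, had the highest change of the tested members from day 7 to day 14 and the lowest from day 14 to day 21, with signals of 973, 859 and 854 at day 7, 1101, 1114 and 1329 at day 14, and 860.4, 879.9 and 1084 at day 21. Its day 14 values lay above both neighbouring ages, and the changes of 0.40 ± 0.17 and -0.33 ± 0.17 did not pass (limma adjusted p = 0.805 and 1).

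Small differences from day 0 ran mostly in the same direction. At day 21, 42 of 57 members were lower than at day 0, and the 3 values of 10 members lay wholly below those of day 0, 17.5% of members against 13.7% of all probe sets tested. At day 7, 50 of 57 were lower with a median of -0.14, and 13 members (22.8%, against 13.7%) lay wholly below day 0. None of the 57 tested members lay wholly above day 0 at either age, against 15.3% of all probe sets at day 21 and 14.9% at day 7. The median change over all probe sets tested was 0.02 at day 21 and 0.00 at day 7. At day 7, 2 members (RPL3 and RPL4) fell and 0 rose by the adjusted p, 3.51% against 3.64% lower and 5.76% higher over all. Both comparisons share the day 0 arrays. Members were lower at the 2 ages in 28 and 30 of 33 large-subunit genes, with medians of -0.08 and -0.15, and in 14 and 20 of 24 small-subunit genes, with medians of -0.03 and -0.08.

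The median of the members stayed negative under each scaling. For day 21 it was -0.28 with quantile normalization, -0.19 with median centring and -0.46 with hybridization control scaling, and the members lower numbered 53, 54 and 57. For day 7 it was -0.22, -0.24 and -0.45, with 55, 56 and 57 members lower, and 14, 6 and 39 members fell. Those that fell are 24.6%, 10.5% and 68.4% of the members, against 3.6%, 5.11% and 11.4% of all probe sets tested. Under these scalings the median of all probe sets tested was -0.01, -0.09 and -0.36 for day 21, and -0.03, -0.1 and -0.31 for day 7. As deposited it was 0.02 and 0.00. Median centring and hybridization control scaling each move the change of every probe set by the same amount. With the poly-A ratio as a covariate the medians were -0.03 and -0.04, and 1 and 0 members fell. These are 1.75% and 0% of the members, against 2.61% and 0.396% of all probe sets tested.

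The members shared a common shift from array to array, which was widest at day 0. Measured against each gene's mean over 12 arrays, the median of the 59 members lay at -0.10, 0.19 and 0.14 on the 3 day 0 arrays and at 0.02, -0.02 and -0.14 at day 7. It lay at -0.05, -0.05 and -0.07 at day 14 and at -0.08, 0.02 and 0.08 at day 21. In day 0 replicate 1 only 15 of 59 members were above their own mean, against 56 and 54 in the other day 0 arrays. The median of replicate 1 lay within the range of the later arrays, and those of the other 2 above it. Without day 0 replicate 1, 8 members fell to day 21 (RPL3, RPL4, RPL11, RPL13, RPL14, RPSA, RPS12 and RPS27A) with a median of -0.17 over all members, 14% against 3.82% of all probe sets. To day 7, 9 fell with a median of -0.24, 15.8% against 2.62%. Without day 0 replicate 2 only RPL3 fell in each comparison, with medians of -0.03 and -0.06. This is 1.75% of the members, against 3.22% of all probe sets to day 21 and 1.65% to day 7. Without day 0 replicate 3 only RPL3 fell, with medians of -0.04 and -0.10, and 1.75% stood against 5.98% and 4.55%.

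**Figure D4:**
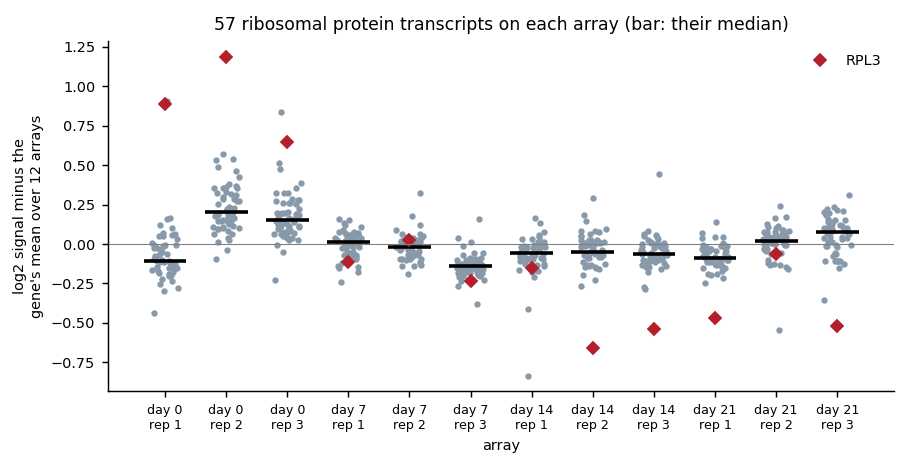
Log2 signal of 57 ribosomal protein transcripts minus each gene's mean over 12 arrays (vertical axis) on each array (horizontal axis, by age and replicate), with a grey point per gene, a black bar at the median of the 57 and red diamonds for RPL3. The day 0 medians lie on both sides of 0, while RPL3 is high on all 3 day 0 arrays.

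Over the 12 arrays the members were alike in pattern. The 1711 pairs of members had a median Pearson correlation of 0.57, and 89.1% were positive. All pairs share the same 12 arrays and their scaling. RPL22 and RPS27 followed the median of the other members most closely (r = 0.94 each, 12 arrays), and RPL3 less so (r = 0.50). The least alike were the dim RPS15A (-0.69), RPL30 (-0.09) and RPL26 (0.12), with RPS27L at 0.06 and RPS24 at 0.17.

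After the first week no member passed. From day 7 to day 14 the members' median change was 0.01, with 31 of 57 higher, and 0 passed (0.00694% of all probe sets did, which is 1). Unadjusted, 1 member (RPL37) had p under 0.05, against 5.95% of all probe sets. From day 14 to day 21 the median was 0.06, with 47 of 57 higher, and 0 members and 0% of all probe sets passed, with 0 members and 3.03% of all probe sets at an unadjusted p under 0.05. The values of 3 members lay wholly above and 1 wholly below in the first of these weeks (6.81% and 7.33% of all probe sets), and 6 and 2 in the second (4.41% and 4.03%). Day 0 was the age with the highest mean for 40 of the 57 members, day 21 for 12, day 14 for 4 and day 7 for 1 (RPLP0).

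Dimmer members had medians further from 0 than bright ones, a split that was chosen after the values were seen. The 15 tested members with a mean signal under 20000 had a median change of -0.15 to day 21, with 14 lower, and the 42 brighter ones -0.06, with 28 lower. To day 7 the medians were -0.22 and -0.12, with 14 and 36 lower. Among all probe sets tested, the 178 with a mean signal of at least 20000 had medians of 0.24 and 0.13. Among the brightest 10% of probe sets 8.62% fell and 13% rose to day 21, and 6.25% fell and 9.42% rose to day 7, while 3.51% of the members fell at each age. Whether the response of the brightest probe sets was limited by their signal was not tested.

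Other genes of the ribosome pathway were taken from lists. Ribosome assembly factors, which process ribosomal RNA and build the subunits in the nucleolus, had a median change of -0.57 to day 21, where the ribosomal proteins had -0.08. Of 47 tested, 15 fell and 1 rose, 34% against 11.5% of all probe sets tested. NOP16, a nucleolar protein, fell by 1.26 ± 0.19 log2 (limma adjusted p = 0.00167), GPATCH4 by 1.90 ± 0.32 (0.0034), and LTV1, which acts in export of the small subunit, by 1.30 ± 0.23 (0.0044). PWP2, a part of the small-subunit processome, fell by 2.31 ± 0.41 (0.0044), and POLR1D, a shared subunit of RNA polymerases I and III, rose by 0.61 ± 0.18 (0.0415). At day 7, 15 fell and 0 rose, 31.9% against 9.4%. Without day 0 replicates 1, 2 and 3 in turn the number that fell to day 21 was 9, 10 and 23, and that to day 7 was 4, 7 and 19. Of all probe sets, 3.82%, 3.22% and 5.98% fell to day 21 in these fits, and 2.62%, 1.65% and 4.55% to day 7. With the poly-A ratio as a covariate 8 and 3 of the list fell, against 2.61% and 0.396% of all probe sets. The list's medians were then -0.69 and -0.8, where the main fit gave -0.57 and -0.53. With hybridization control scaling 30 and 24 fell, against 17.3% and 11.4% of all probe sets. In fits to the arrays compared alone the number was 6 and 4, where 1.58% and 1.1% of all probe sets fell. To day 21 it was 8 and 9 without day 21 replicates 1 and 2, where 2.53% and 3.63% fell. To day 7 it was 3, 4 and 3 without day 7 replicates 1, 2 and 3, where 1.32%, 1.19% and 1.26% fell.

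The mitochondrial ribosomal proteins, which form the separate ribosome that translates the mitochondrial genome, had a median change of -0.29 to day 21. Of 58 tested, 7 fell and 1 rose, 13.8% against 11.5%. MRPS7 fell by 1.18 ± 0.21 log2 (limma adjusted p = 0.00447), MRPS27 by 0.76 ± 0.17 (0.015) and MRPL2 by 0.76 ± 0.18 (0.0175), and MRPS25 rose by 0.85 ± 0.22 (0.0271). The number that fell was 4 without day 0 replicate 1, 3 without day 0 replicate 2, and 4, 2 and 1 without day 21 replicates 1, 2 and 3. Of all probe sets, 3.82%, 3.22%, 2.53%, 3.63% and 2.24% fell in these fits, in the same order. With the poly-A ratio as a covariate 2 of the list fell, against 2.61% of all probe sets. With hybridization control scaling 34 fell, against 17.3% of all probe sets. To day 7, 5 of 58 fell and 0 rose, 8.62%, where 3.64% of all probe sets fell and 5.76% rose. The number that fell to day 7 was 1 to 3 without day 0 replicate 2, any of the 3 day 7 arrays, day 14 replicate 2, or day 21 replicates 1 or 3. In these fits 1.19% to 3.09% of all probe sets fell.

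Other transcripts with a 5′ TOP tract, which code mainly for translation factors, had a median change of -0.06 to day 21. Of 22 tested, TPT1, a growth-related protein, rose by 0.42 ± 0.12 log2 (limma adjusted p = 0.0374), and HNRNPA1, a splicing factor, fell by 0.67 ± 0.18 (0.0331). These make 9.09% of the list, against 11.5% of all probe sets. To day 7, 0 of 22 passed, against 9.4%. Of 6 related genes outside the rule (FAU, made as a fusion with a ribosomal protein, the paralogs RPL7L1, RPL22L1, RPL26L1 and RPL36AL, and RPS19BP1, which binds RPS19), 0 passed in either comparison. FAU lay at 0.02 ± 0.13 and RPL7L1 at -0.73 ± 0.24 (limma adjusted p = 0.956 and 0.0632) to day 21. Of 9 genes of mTOR signalling to the ribosome, 0 passed, with RHEB, the activator of mTOR, at -0.22 ± 0.20 (0.52). Differences between these lists and the ribosomal proteins were not tested.

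**Figure D5:**
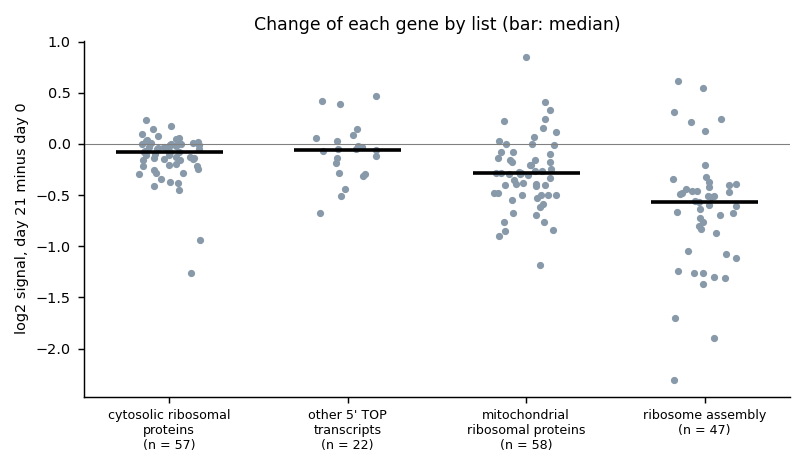
Log2 change from day 0 to day 21 (vertical axis) of each tested gene in 4 lists (horizontal axis, with the number of genes), with a point per gene and a black bar at the median. The medians are -0.08 for cytosolic ribosomal proteins, -0.06 for other TOP transcripts, -0.29 for mitochondrial ribosomal proteins and -0.57 for ribosome assembly.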

How the data were processed

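The deposited values are intensity signals per probe set on a linear scale, which the authors made with MAS5 (version not stated) per the submitters' processing notes. Per the labels' protocols, biotin-labelled cRNA was made from total RNA. The signals, already scaled to 1 trimmed mean, were taken as log2 values with no further normalization. Of 24123 probe sets, 124 controls and the dimmest 40% by mean log2 signal were left out, which left 14399. All 59 member symbols matched RefSeq names by Entrez identifier. Each probe set was fitted with limma 3.58.1 (R 4.3.3), a mean per age over all 12 arrays, eBayes with trend, and Benjamini-Hochberg adjustment. The fit was tested on simulated data. A change was called at an adjusted p of at most 0.05. Alternatives were no filter, a filter of 60%, quantile normalization, median centring, scaling on 27 hybridization control probe sets, an offset of 29.7 added to the signal, array weights, eBayes without trend, the poly-A ratio as a covariate, a block for the replicate number, fits to the arrays compared alone, and each array left out in turn; for the median, also all probe sets of a gene averaged.

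Named members are those called, the 6 largest rises and falls from day 0 to day 21 and to day 7, the largest of each later week, and a fixed set of well-known ribosomal proteins; up to 4 called genes come from each other list. RPL5, RPL8, RPL11, RPS27, RHEB, FAU, RPL7L1 and POLR1D were named outside this rule, after their values were seen. The members and lists were chosen with earlier results of these data known. Figures were drawn with matplotlib.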

Additional observations from a re-analysis of the deposited data

How the results depend on the processing

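The number of members that fell to day 21 (2) was 21 with quantile normalization, 7 with median centring, 47 with hybridization control scaling, 3 with a filter of 60%, and 1 with no filter, no variance trend, array weights, the poly-A ratio as a covariate or only the arrays compared. To day 7 (2) it was 14, 6, 39 and 3 with the first 4 of these, 1 with no filter, no variance trend or only the arrays compared, and 0 with the poly-A ratio. The F test's count (1) was 16, 4, 42 and 2 with the first 4, and the shares of all probe sets in these F tests are not given here. With the filter of 60%, 7.84% of all probe sets fell to day 21 and 5.65% to day 7, against 5.36% of the members. Under the settings named here that left 1 member, 1.58% to 4.02% of all probe sets fell to day 21 and 1.1% to 2.62% to day 7. Leaving out 1 array gave 1 to 8 members to day 21, 1 to 9 to day 7 and 1 to 2 in the F test, and medians of -0.17 to -0.03 and -0.24 to -0.06. In these fits 2.24% to 5.98% of all probe sets fell to day 21 and 1.19% to 4.55% to day 7. The shares in their F tests are not given here. The median to day 21 (-0.08) became -0.28 with quantile normalization, -0.19 with median centring and -0.46 with hybridization control scaling, and that to day 7 (-0.14) became -0.45 with the last and -0.04 with the poly-A ratio. Hybridization control scaling turned RPLP0 to -0.33 and RPS6 to -0.37 at day 21. Median centring and hybridization control scaling each subtract 1 value per array. They move the change of every probe set by the same amount. With them the median of all probe sets tested became -0.09 and -0.36 at day 21, and -0.1 and -0.31 at day 7. The cause of the other shifts was not tested. Leaving out an array or a filter changes how many arrays or probe sets enter the fit. In the later weeks 0 members passed under every alternative run.

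Arrays with the same replicate number did not deviate together (median r of -0.02 over 18 pairs, against 0.01 over 36 pairs with different numbers). With the replicate block 1 member fell to day 21 and 1 to day 7, 1.75% of the members. Of all probe sets, 4.17% and 2.54% fell in these comparisons. The F test called 1 member, and the share of all probe sets in it is not given here.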
